A study of Drosophila melanogaster with 76 samples.

Results

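The comparison set peaks of RNA polymerase II (Pol II) against peaks of its Ser5-phosphorylated form (pSer5) in Drosophila melanogaster mutant embryos labelled 2.5-3 h. It rests on 4 of the 76 samples of the series, which are 2 Pol II lists and 2 pSer5 lists, with the Pol II lists of the rescue experiment left out. A region was a merged peak that both lists of an antibody overlapped, and a region was shared when it overlapped a region of the other antibody by at least 1 bp. By this rule there were 3540 Pol II regions and 6261 pSer5 regions in the mutant. Most of the pSer5 regions on the chromosome arms had no Pol II region, while most Pol II regions of the mutant lay near the centromeres and on the Y chromosome. Of the Pol II regions outside the arms 59.3% were shared with pSer5, against 66.0% of those on the arms.

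Pol II transcribes protein-coding genes and most small nuclear RNA genes, and its largest subunit carries a repetitive C-terminal domain. The kinase of TFIIH phosphorylates Ser5 of this domain when transcription starts, so pSer5 is a mark of polymerase at promoters and early in the gene, and every pSer5 polymerase is also a Pol II. IntS11 is the endonuclease of the Integrator complex, which cleaves nascent RNA at small nuclear RNA genes and near the promoters of many protein-coding genes. In the Drosophila embryo, transcription of the zygotic genome starts with a small set of patterning and cellularization genes and then spreads to many more, and the factors Zelda and GAF help to open the chromatin of these genes.

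The series asked what IntS11 does in the Drosophila embryo, by chromatin immunoprecipitation and sequencing (ChIP-seq) of mutant and wild-type embryos. The embryos were sorted here by the word Mutant or WT in the sample title, and the words IntS11 mislocalized stand in the titles of both genotypes. The labels do not name the allele, driver or strain behind either word, nor how the stage was judged. Whole embryos were fixed, so a list mixes all cell types of the embryo, and fewer cells with a peak and less polymerase per cell cannot be told apart. The protocol states that immunoprecipitations were made in duplicate and does not say whether the duplicates came from separate embryo collections, so the spread between replicates may be technical.

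Each deposited list holds the position of its peaks and no height or read count, so peak length was the only value per peak and the depth is unknown. A place without a called peak is not a place without polymerase. With 2 lists against 2, the two-sided exact permutation test cannot go below p = 0.333, so no difference between lists could pass 0.05. The shortest peak was 210 and 211 bp in the Pol II lists and 222 and 228 bp in the pSer5 lists.

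In the mutant, pSer5 had more called peaks than Pol II. The Pol II lists held 4497 and 5898 peaks (5198 ± 991, SD, n = 2), and the pSer5 lists held 9446 and 9055 peaks (9251 ± 276, SD, n = 2). The lists of the antibodies did not overlap in number, and the pSer5 lists held more by 0.84 on the log2 scale (exact permutation p = 0.333). Pol II peaks covered 3.12 and 3.98 Mb and pSer5 peaks covered 6.46 and 6.31 Mb, a difference of 0.86 on the log2 scale (exact permutation p = 0.333). On the chromosome arms alone, set apart from the regions near the centromeres, the differences were 1.98 for number and 2.26 for covered length, with the same p. The median peak was about as long for both, at 432 and 408 bp for Pol II and 445 and 450 bp for pSer5, and the sign of that difference turned when peaks up to 330 bp apart were joined and those under 330 bp left out together. In the wild-type lists of the same stage the numbers were closer, with 9474 and 9071 Pol II peaks and 9603 and 9384 pSer5 peaks.

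Pol II and pSer5 peaks of the mutant were divided differently between the chromosome arms and the rest of the genome. The chromosome arms were taken to end at 22 Mb of 2L, 23 Mb of 3L and 22 Mb of X and to begin at 6 Mb of 2R and 5 Mb of 3R, and everything closer to the centromere, with chromosomes 4 and Y, was counted as outside the arms. Of the Pol II peaks, 74.3% and 63.8% lay outside the arms, against 33.7% and 31.8% of the pSer5 peaks, a difference of 36.3 percentage points (exact permutation p = 0.333). On the arms, the Pol II lists held 1157 and 2136 peaks, and the pSer5 lists held 6265 and 6171. Outside the arms the numbers were closer, with 3340 and 3762 Pol II peaks and 3181 and 2884 pSer5 peaks. Peaks within 500 bp of an annotated gene start or end made up 4.51% and 7.27% of the Pol II peaks and 23.1% and 24.8% of the pSer5 peaks, a difference of -18.1 points (exact permutation p = 0.333). In wild-type embryos 6.85% and 6.63% of Pol II peaks and 6.45% and 6.26% of pSer5 peaks lay outside the arms. Gene ends held 61.3% and 62.4% of the wild-type Pol II peaks and 59.0% and 59.5% of the wild-type pSer5 peaks. Thus both antibodies had a smaller share of peaks at gene ends in every mutant list than in any wild-type list, and within the mutant the share was lower for Pol II than for pSer5.

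**Figure D1:**
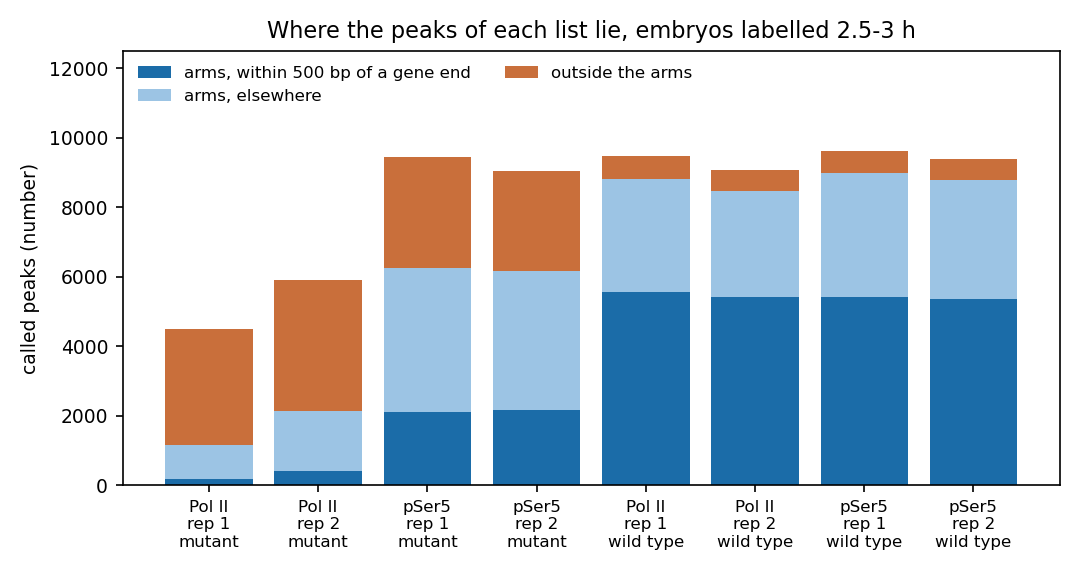
Stacked bars give the number of called peaks (y axis) of each list (x axis), split into peaks on the arms within 500 bp of a gene end, other peaks on the arms and peaks outside the arms. The mutant Pol II lists, with 1157 and 2136 peaks on the arms, have the shortest blue bars, and the mutant lists of both antibodies have the tallest orange bars.

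The regions that both lists of an antibody held gave the same picture. Of the 3540 Pol II regions, 2159 (61.0%) were shared with pSer5, and of the 6261 pSer5 regions, 2240 (35.8%) were shared with Pol II. On the arms the overlap was lopsided. There, 592 of 897 Pol II regions (66.0%) were shared, but 534 of 4019 pSer5 regions (13.3%), so 3485 arm regions of pSer5 had no Pol II region. The small number of Pol II regions limits the pSer5 share that can be reached on the mutant arms. The wild-type arms held 6654 Pol II and 7211 pSer5 regions. Outside the arms 1567 of 2643 Pol II regions (59.3%) and 1706 of 2242 pSer5 regions (76.1%) were shared. In wild-type embryos 97.0% of 7090 Pol II regions and 64.7% of 7662 pSer5 regions were shared. With equal numbers of the longest peaks per list, over the whole genome, the mutant shares were 39.9% for Pol II and 39.4% for pSer5.

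Single lists show the spread behind these shares. Of the mutant Pol II peaks, 53.9% and 45.5% overlapped a pSer5 region of the mutant, against 91.0% and 93.5% for the wild-type Pol II lists. The mutant value was lower by 42.6 points, from a mean of 92.3% to 49.7%, and the lists of the genotypes did not overlap (exact permutation p = 0.333). Of the mutant pSer5 peaks, 29.4% and 28.9% overlapped a Pol II region, against 55.6% and 57.0% in the wild type, a difference of -27.2 points (exact permutation p = 0.333). The Pol II replicates of the mutant differed from each other more than the pSer5 replicates did. Peaks of the other replicate met 85.0% of the peaks of Pol II replicate 1 and 61.9% of those of replicate 2, and they met 70.6% and 73.6% of the peaks of the pSer5 replicates.

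**Figure D2:**
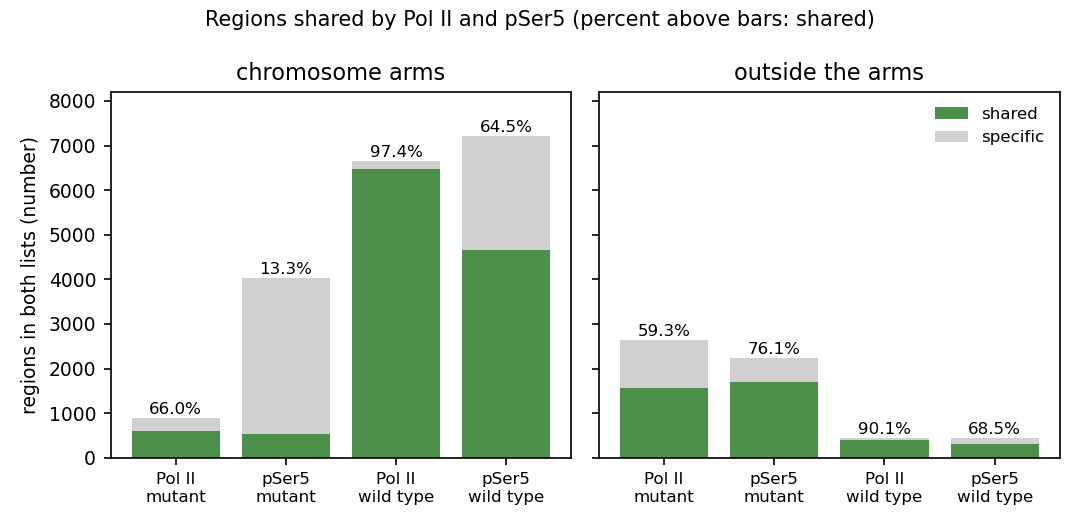
Bars give the number of regions found in both lists (y axis) for each antibody and genotype at 2.5-3 h (x axis), on the chromosome arms and outside them, with the shared regions in green, the specific ones in grey and the shared percentage above. Of the mutant pSer5 regions on the arms 13.3% are shared, against 64.5% in the wild type. The arms hold 897 Pol II regions in the mutant and 6654 in the wild type, which bears on this contrast.

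A region with no partner was not always far from one list of the other antibody. Of the 1381 Pol II regions outside pSer5 regions, 547 met a peak of 1 pSer5 list and 834 met neither. Of the 4021 pSer5 regions outside Pol II regions, 469 met a peak of 1 Pol II list and 3552 met neither. Few specific pSer5 regions on the arms had a Pol II region nearby. Of these, 21 of 3485 (0.603%) lay within 500 bp of a Pol II region and 153 (4.39%) within 5000 bp. Of the 305 specific Pol II regions on the arms, 43 (14.1%) lay within 500 bp of a pSer5 region and 128 (42.0%) within 5000 bp. These shares also depend on how many regions there were to meet, which was 897 for Pol II and 4019 for pSer5 on the arms. The shares expected from these numbers were not computed. Outside the arms, with 2643 Pol II and 2242 pSer5 regions, the numbers were closer. There, 45.9% of the specific pSer5 regions and 68.2% of the specific Pol II regions had a region of the other antibody within 5000 bp.

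The specific and shared regions on the arms were found at different kinds of places. Of the 3485 specific pSer5 regions, 1540 (44.2%) lay within 500 bp of a gene end, 51.9% elsewhere inside genes and 3.96% between genes, with a median length of 708 bp. Of the 534 shared pSer5 regions, 15.9% lay at gene ends and 44.0% between genes, with a median length of 815 bp. Shared Pol II regions on the arms had a median length of 754.5 bp, with 24.0% at gene ends, and specific ones had a median length of 447 bp, with 7.21% at gene ends. The arm regions take in the histone gene repeat of 2L, which held 95 and 108 mutant Pol II peaks. The shares without it were not computed. Longer Pol II regions were more often shared, from 45.3% of the shortest quartile to 86.6% of the longest quartile on the arms and from 33.0% to 87.0% outside them. For pSer5 on the arms the shares lay closer together, with 10.2% of the shortest quartile and 16.5% of the longest quartile shared.

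Many regions of pSer5 without Pol II lay at places called in wild-type embryos of the same stage. Of the 3485 on the arms, 51.2% overlapped a wild-type Pol II region, 70.4% a wild-type pSer5 region and 38.3% a wild-type IntS11 region. Of the 592 arm regions that Pol II shared with pSer5, 23.1% overlapped a wild-type Pol II region and 22.3% a wild-type pSer5 region. The 592 include regions of the histone gene repeat, where the wild type also had both antibodies. Of the 305 arm regions of Pol II alone, 1.31% overlapped a wild-type Pol II region. The Pol II regions of mutant embryos labelled 1-1.5 h met 90.2% of the shared Pol II regions, 63.9% of the specific Pol II regions and 18.1% of the specific pSer5 regions of the later mutant arms. Zelda regions of the mutant at 2.5-3 h met 35.6% of the shared Pol II regions, 3.93% of the specific Pol II regions and 16.3% of the specific pSer5 regions on the arms. These classes come from the same mutant lists, and the shares are descriptions with no test.

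**Figure D3:**
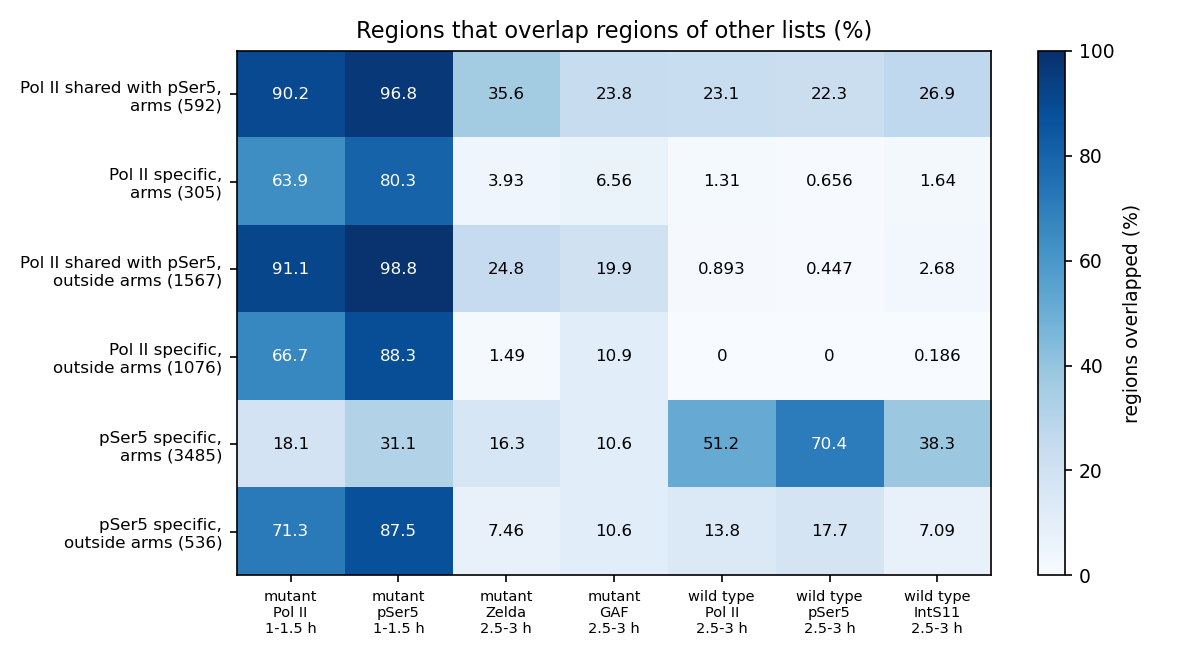
Cells give the percentage of mutant 2.5-3 h regions of each class (rows, number of regions in brackets) that overlap a region found in both lists of another group (columns), from white at 0 to dark blue at 100%. Specific pSer5 regions of the arms stand out for their overlap with wild-type lists (51.2%, 70.4% and 38.3%). All classes of Pol II regions, and the specific pSer5 regions outside the arms (71.3% and 87.5%), have a high overlap with the earlier mutant lists.

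A gene was counted as bound when a peak lay within 500 bp of its annotated start or end, over 14238 protein-coding, microRNA and small nuclear RNA genes. In the mutant, 1740 genes had a peak in both pSer5 lists and in neither Pol II list, a background of 12.2% of all genes against which the gene groups are read. Both antibodies were present in all 4 lists at 174 genes, which is 1.22%, and Pol II alone at 21 genes, which is 0.147%. In all, 2027 genes (14.2%) had pSer5 in both lists and 207 (1.45%) had Pol II in both lists. Wild-type embryos had both antibodies at 7326 genes (51.5%), pSer5 alone at 681 (4.78%) and Pol II alone at 19 (0.133%), with 8632 (60.6%) for pSer5 in both lists and 7370 (51.8%) for Pol II in both lists. Of the 7326 genes with both in the wild type, 1563 (21.3%) had pSer5 alone in the mutant, 141 (1.92%) had both and 4494 (61.3%) had neither. Of the 1740 genes with pSer5 alone in the mutant, 1563 (89.8%) had both antibodies in the wild type. Without Pol II replicate 1 the genes with both numbered 279 and those with Pol II alone 162, and without Pol II replicate 2 those with Pol II alone numbered 40.

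Genes with pSer5 alone in the mutant had longer wild-type peaks than genes with neither antibody in the mutant. Leaving out the histone genes, genes with both antibodies in the wild type had a median wild-type pSer5 peak of 6425 and 6340 bp (replicates 1 and 2) where the mutant had pSer5 alone, and of 3053 and 3065.5 bp where the mutant had neither. The median wild-type Pol II peak was 2314 and 2092 bp for the former and 1217 and 1104 bp for the latter. The 30 genes with both antibodies in both genotypes did not have long wild-type peaks. Their medians were 3006 and 3147 bp for pSer5 and 1047 and 1046 bp for Pol II, near those of the genes with neither. The mutant peaks themselves were shorter, since at the 1641 genes of the pSer5-only class that had pSer5 in both genotypes the median pSer5 peak was 683 and 721 bp in the mutant and 6239 and 6144 bp in the wild type. Among the genes with both antibodies in the wild type, a wild-type IntS11 peak of the same stage stood at 84.5% where the mutant had pSer5 alone. It stood at 61.1% where the mutant had neither and at 70% of the 30 genes where it had both. A Zelda peak of the mutant stood at 19.3%, 3.4% and 46.7% of these classes in the same order. The genes themselves had a median length of 2367 bp where the mutant had pSer5 alone and 2911 bp where it had neither. What part peak length has in the counts was not tested.

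Among protein-coding genes of the arms with pSer5 alone, taken 1 per peak and without symbols that begin with CG, the longest pSer5 peaks at a gene end stood at LanA, jigr1, Inx3, l(3)mbt, sca, Lac, mRF1 and Tpc2. LanA (chr3L:6203831-6218022, dm6), which encodes the alpha chain of laminin in the basement membrane, had pSer5 peaks of 1820 and 13609 bp in the mutant and no Pol II peak. In the wild type it had Pol II peaks of 3285 and 3281 bp and pSer5 peaks of 3624 and 3450 bp. The shorter mutant value is 1 piece of a broken peak, since over the whole region the pSer5 peaks added up to 13218 and 13609 bp. Inx3 (chr3R:28853606-28859497), an innexin of gap junctions, had mutant pSer5 peaks of 6890 and 6730 bp and wild-type Pol II peaks of 9202 and 4658 bp. Its mutant replicates were close to each other, and neither mutant Pol II list held a peak there.

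The chromatin repressor gene l(3)mbt (chr3R:27266326-27273273) had mutant pSer5 peaks of 7574 and 5733 bp. Pol II replicate 2 had peaks of 2007 bp in sum over the pSer5 region there, which also takes in CG14262 and CG14260. None of these lay within 500 bp of the ends of l(3)mbt. sca (chr2R:12780541-12802010), a gene for a secreted factor of the Notch pathway, had pSer5 peaks of 5329 and 6612 bp. jigr1 (chr3R:25637843-25651874) had 6179 and 7517 bp in the mutant against 20405 and 20310 bp in the wild type. Lac (chr2R:12453190-12465630), a septate junction protein gene, had 9873 and 1480 bp in the mutant and 17994 and 18895 bp in the wild type. The shorter mutant value is a separate peak, since replicate 2 also had a pSer5 peak of 9564 bp inside the gene that did not reach its end windows. At jigr1 and Lac the mutant peaks were shorter than the wild-type peaks in both replicates. mRF1 (chr2L:13219979-13221398), a mitochondrial translation release factor gene, had 5574 and 5593 bp in the mutant and 7197 and 6932 bp in the wild type. Tpc2 (chr2R:24897902-24900734), a mitochondrial carrier gene, went the other way, with mutant pSer5 peaks of 4924 and 5791 bp, wild-type pSer5 peaks of 454 and 405 bp and no Pol II peak in either genotype.

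Segmentation genes, which lay down the body plan of the embryo, often had pSer5 alone. Of 9 pair-rule genes, 7 had it (77.8%), as had 7 of 13 segment polarity genes (53.8%) and 6 of 13 gap genes (46.2%), against 12.2% of all genes, and no member of the lists had Pol II in both mutant lists. The pair-rule gene eve, a homeodomain repressor, had mutant pSer5 peaks of 2560 and 1080 bp and no Pol II peak, where the wild type had Pol II peaks of 1461 and 1376 bp. ftz, another homeodomain gene, had mutant pSer5 peaks of 1728 and 1607 bp against wild-type Pol II peaks of 4919 and 3877 bp. odd, a zinc finger repressor, had mutant pSer5 peaks of 3405 and 1748 bp, and opa, a zinc finger activator of the later pattern, had 425 and 976 bp against 19338 and 18944 bp in the wild type. All of these had Pol II peaks in both wild-type lists and in neither mutant list.

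Among the gap genes, Kr had mutant pSer5 peaks of 2128 and 2274 bp, hb 1230 and 1131 bp, hkb 2625 and 2516 bp and ems 414 and 351 bp. At Kr the mutant pSer5 peaks were shorter than the wild-type pSer5 peaks of 5669 and 6671 bp, and at hkb they lay between the wild-type pSer5 peaks of 1598 and 3734 bp. Kr, hb, hkb and ems had Pol II peaks in both wild-type lists. Of the segment polarity genes, gsb had mutant pSer5 peaks of 2205 and 2253 bp, hh 970 and 596 bp, en 494 and 509 bp and mid 272 and 284 bp. These peaks were close between replicates for gsb, en and mid, and the last were near the shortest peaks of the lists.

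Some earliest zygotic and Notch-responsive genes had a Pol II peak as well. Of 19 earliest zygotic genes, 8 had pSer5 alone (42.1%), 1 (sna) had both and another 5 had pSer5 in both lists with Pol II in 1 list. sna (chr2L:15476593-15478260), the repressor that marks the mesoderm, had Pol II peaks of 378 and 321 bp and pSer5 peaks of 1425 and 1492 bp in the mutant, against 2124 and 1582 bp for wild-type Pol II. Of 15 Notch target and Bearded genes, 6 had pSer5 alone, 7 more had Pol II in 1 list and 1 had both. That gene, E(spl)mbeta-HLH, a Notch-responsive repressor, had Pol II peaks of 346 and 414 bp and pSer5 peaks of 2892 and 1851 bp. Of 25 dorsoventral genes, 9 had pSer5 alone, and of 11 maternal determinant genes 2 had it (Tl and cad). Of 8 Hox genes 1 (lab) had pSer5 alone, 12.5% and so near the 12.2% of all genes, and lab had peaks of 326 and 471 bp.

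Genes that all cells use also had pSer5 without Pol II. Of 85 cytoplasmic ribosomal protein genes, 51 had it (60%), of 32 proteasome genes 14 (43.8%) and of 52 translation factor genes 13 (25%). Of 11 glycolysis genes 3 had it (27.3%) and of 32 spliceosomal small nuclear RNA genes 12 (37.5%). The share was 12.2% over all genes and 21.3% over genes with both antibodies in the wild type, near the values for translation factors and glycolysis. Small nuclear RNA genes are classical Integrator targets, and in the wild type 28 of the 32 had both antibodies. Heat shock genes, which hold paused polymerase in many cells, had pSer5 alone at 13 of 17 members and both at Hsp70Bbb. Hsp70Bbb (chr3R:12502510-12504856) had Pol II peaks of 348 and 1134 bp and pSer5 peaks of 1895 and 1968 bp in the mutant, and its near-identical copies make the assignment of reads among the Hsp70 genes uncertain. Of 18 Polycomb and Trithorax group genes 6 had pSer5 alone (33.3%), and of 16 pioneer factor and insulator genes 5 (31.25%). Of 260 microRNA genes 27 had it (10.4%), a little below the 12.2% of all genes.

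Genes of the transcription machinery were among those with pSer5 alone. Pol II subunit genes had pSer5 alone at 3 of 12 members (25%), which were Polr2E, Polr2F and Polr2L. General transcription factors had it at 4 of 15 (26.7%), which were Taf5, Tbp, TfIIEbeta and Trf2. The kinases, phosphatases and pausing factors of the C-terminal domain had it at 6 of 20 (30%). The share was 12.2% over all genes and 21.3% over genes with both antibodies in the wild type. Of these members, 11, 15 and 19 had both antibodies in the wild type. CycH, the cyclin of the Ser5 kinase, had pSer5 peaks of 1001 and 1145 bp and no Pol II peak, against wild-type Pol II peaks of 4194 and 3696 bp. CycT, the cyclin of the elongation kinase P-TEFb, had pSer5 peaks of 1088 and 1106 bp against wild-type Pol II peaks of 3146 and 1550 bp. CycC, a cyclin of the Mediator kinase, had 468 and 415 bp, and CycK had 263 and 2032 bp. Tbp, the TATA-binding protein, had 522 and 663 bp. CycH, CycT, CycC, CycK and Tbp each had both antibodies in the wild type.

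Of 14 Integrator subunit genes, 2 had pSer5 alone, 14.3% and so near the 12.2% of all genes, and 1 had both. IntS1, the scaffold subunit, had mutant pSer5 peaks of 2770 and 3578 bp, and omd had 1538 and 1497 bp, with no Pol II peak at either. IntS11 (chr3R:29745337-29747513) was the member with both, with Pol II peaks of 508 and 592 bp and pSer5 peaks of 818 and 722 bp in the mutant. Its wild-type Pol II peaks were 615 and 802 bp, a little longer than in the mutant, and its wild-type pSer5 peaks were 3513 and 5213 bp, longer than both mutant pSer5 peaks. The mutant peaks also meet an end of the neighbouring gene ATPsyngamma, a subunit of ATP synthase, and the lists do not say to which gene they belong.

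Genes of tissues that form later served as the contrast, and many of them lacked peaks in the wild type as well. Wild-type embryos had neither antibody at 9 of 14 muscle structural, 4 of 10 neuronal, 73 of 92 cuticle and 32 of 40 gut enzyme genes. None of 14 muscle structural genes or 10 neuronal genes had a peak of either antibody in any mutant list, and of 92 cuticle genes 1 had both and 88 had none. That gene, Cpr60D, had Pol II peaks of 287 and 230 bp and pSer5 peaks of 4204 and 4225 bp. Its pSer5 peaks also stand at the neighbours CG30161 and CG3663, so they cannot be assigned to Cpr60D. Of 40 gut enzyme genes, 2 had both and 1 (LManII) had pSer5 alone. Both were the neighbouring proteases Jon99Cii and Jon99Ciii, which share Pol II peaks of 600 and 739 bp and pSer5 peaks of 721 and 758 bp and had no wild-type Pol II or pSer5 peak.

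**Figure D4:**
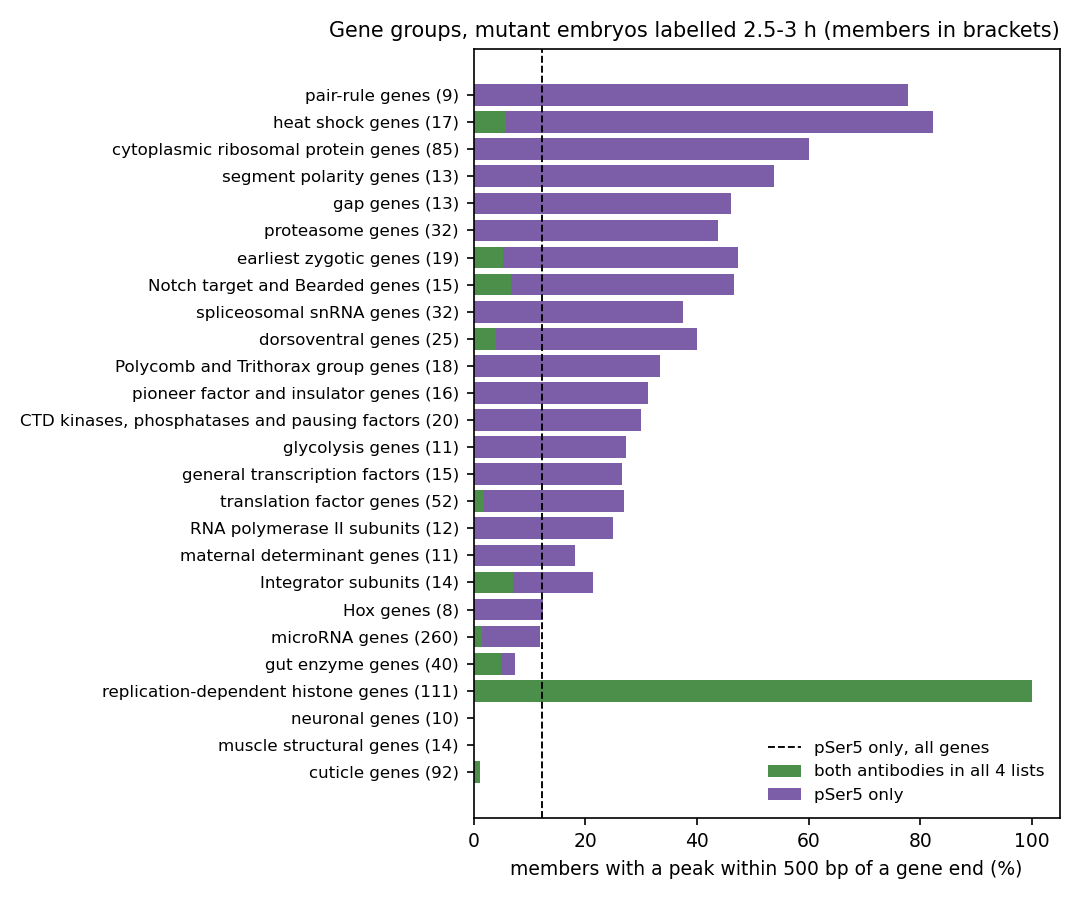
Bars give the percentage of members of each gene group (y axis, members in brackets) with pSer5 alone (purple) or with both antibodies in all 4 lists (green) within 500 bp of a gene end in mutant embryos at 2.5-3 h, and the dashed line is the 12.2% of all genes with pSer5 alone. Pair-rule, heat shock and ribosomal protein genes reach the highest purple shares, and all 111 histone genes have both.

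The genes with both antibodies were mostly replication-dependent histone genes. All 111 of them, in the histone repeat of chromosome 2L (chr2L:21416953-21541681), had both antibodies in all 4 lists, as they had in the wild type, and without them 63 genes were left. The 8 genes of this class with the longest peaks were all histone genes. His2A:CG33808 (chr2L:21433862-21434337) had Pol II peaks of 1235 and 570 bp and pSer5 peaks of 7377 and 7370 bp, and the pSer5 peaks there span neighbouring histone genes. Within the repeat the mutant Pol II peaks were broken into 95 and 108 pieces that covered 43.2% and 44.3% of its 124.729 kb, and the pSer5 peaks, 40 and 41 of them, covered 73.6% and 73.5%. Wild-type Pol II covered 82.5% in both lists, with 26 and 27 peaks, and wild-type pSer5 covered 78.1% and 79.3%. Mutant Pol II at 1-1.5 h covered 89.6% and 89.4%. The coverage by pSer5 thus differed little between genotypes, while that by Pol II was lower in both mutant lists of the later stage than in these other Pol II lists. Whether reads from near-identical repeats were placed once or discarded is not given in the sources used here, and this bears on the histone, rRNA, Ste and centromere-near values alike.

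Of the 63 other genes with both antibodies, 30 had both in the wild type and 29 had neither antibody. Among the former, chosen here after their values were seen, Ubi-p63E (chr3L:3899259-3903184), a polyubiquitin gene, had mutant Pol II peaks of 2107 and 2068 bp and pSer5 peaks of 2378 and 2243 bp, close to its wild-type Pol II peaks of 1739 and 1827 bp. The same mutant peaks also stand at the neighbouring gene Ccz1, and the lists do not say to which gene they belong. Dscam4 (chr3L:8238647-8282398), a neuronal adhesion gene, had mutant Pol II peaks of 2697 and 2999 bp against 399 and 345 bp in the wild type. Among the genes with neither in the wild type were 7 Ste: genes, near-identical tandem copies on the X chromosome, also named after their values were seen. Ste:CG33239 (chrX:14056895-14057618) had Pol II peaks of 536 and 557 bp and pSer5 peaks of 593 and 586 bp.

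The 21 genes with Pol II alone mostly lacked a called peak in the wild type, where 18 had no peak of either antibody. The longest Pol II peaks, 3424 and 3528 bp, stood at Cyp6a8 (chr2R:14887171-14889010), a cytochrome P450 gene. s-cup (chr2R:12495672-12501459) had 1860 and 1867 bp, and neither gene had a pSer5 peak in the mutant or a Pol II or pSer5 peak in the wild type. parvin (chrX:19746041-19748458), an integrin adhesion gene, had 724 and 790 bp and was the one of these genes with both antibodies in the wild type. The same Pol II peaks stand at its neighbours Rpp20, CG33932, COX6B and CG18809, where pSer5 peaks of 779 and 756 bp put the genes in the class with both, and these lay outside the windows of parvin. The others named by the same rule were Ag5r2 (700 and 584 bp), TwdlC (257 and 843 bp), Pgam5-2 (307 and 500 bp), TwdlL (315 and 385 bp) and Hex-t2 (266 and 383 bp), of which TwdlC and TwdlL encode cuticle proteins. In the mutant at 1-1.5 h, 14 of the 21 genes had pSer5 in both lists and 2 had Pol II.

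Other RNA genes were not in the count above. Of 269 small nucleolar RNA genes, 118 had pSer5 alone and none had both, where the wild type had both at 222. Many of these genes lie in introns of ribosomal protein and other host genes, and their windows also take in the host. Of 290 tRNA genes, 12 had pSer5 alone and none had both. Of 98 rRNA genes, which Pol I and Pol III transcribe, 39 had both antibodies, 6 had Pol II alone and 1 had pSer5 alone in the mutant. In the wild type 9 had both and 12 had Pol II alone.

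The regions near the centromeres held the longest Pol II peaks of the mutant. The longest, at chrX:23377343-23394765, was 17423 bp in both Pol II lists and 14187 and 14058 bp in the pSer5 lists, with no gene in the annotation table. Over the rRNA genes of the proximal X (chrX:23200802-23291729, 90.928 kb), mutant Pol II peaks covered 49.0% and 48.6% and pSer5 peaks 33.7% and 34.2%, against at most 0.399% in any wild-type Pol II or pSer5 list of 2.5-3 h. Pol II thus covered more of this stretch than pSer5 did in both replicates. In the first 6 Mb of 2R, Pol II peaks covered 9.53% and 11.6% and pSer5 peaks 8.40% and 7.54%, and wild-type Pol II 1.91% and 1.68%. In the first 5 Mb of 3R they covered 11.5% and 13.9% for Pol II and 10.5% and 10.05% for pSer5. The proximal X had the highest shared share among the pSer5 regions, at 175 of 182 (96.2%), and the Y chromosome held 429 Pol II and 333 pSer5 regions in the mutant against 11 and 9 in the wild type.

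The X chromosome arm departed from the autosomal arms. Of its 284 pSer5 regions, 53.9% were shared with Pol II, against 6.85% on 3R, 9.34% on 3L, 10.3% on 2R and 14.6% on 2L. pSer5 stood alone at 41 of 2194 genes of the X arm (1.87%), and at 15.5% of genes on 2L, 14.3% on 2R, 12.6% on 3L and 14.6% on 3R. In the wild type, the pSer5 share of genes on the X arm was 57.3%, near the 60.4% to 62.7% of the other arms. Peaks of the X arm made up 6.88% and 6.24% of the arm peaks of mutant pSer5 and 15.8% and 15.7% of those of wild-type pSer5, a difference of -9.23 points (exact permutation p = 0.333). For mutant Pol II the X arm share was 25.5% and 15.1%, against 12.4% and 12.04% in the wild type. Mutant pSer5 at 1-1.5 h also had a low share, 9.31% and 8.56%, with 19.3% and 21.3% for Pol II.

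**Figure D5:**
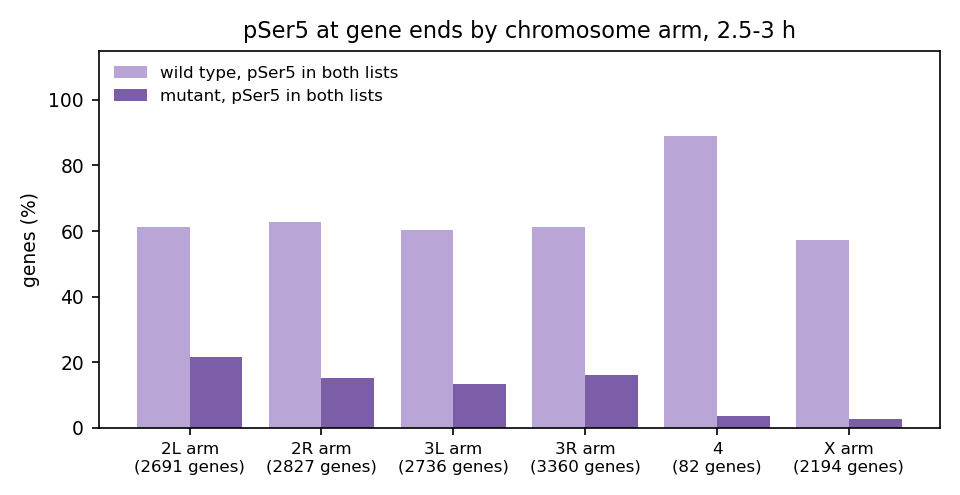
Bars give the percentage of genes (y axis) with pSer5 in both lists within 500 bp of a gene end, for each chromosome arm and chromosome 4 (x axis, genes in brackets), in wild-type and mutant embryos at 2.5-3 h. The X arm and chromosome 4 have the lowest mutant bars, at 2.83% and 3.66%, although their wild-type bars reach 57.3% and 89.0%.

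Over the whole genome, 73.6% of 5914 Pol II regions and 56.9% of 8478 pSer5 regions of mutant embryos labelled 1-1.5 h were shared, against 61.0% and 35.8% at 2.5-3 h. The order of the stages depended on the place. On the arms the shared share of Pol II regions was 55.9% at 1-1.5 h and 66.0% at 2.5-3 h, and that of pSer5 regions was 38.4% and 13.3%. Outside the arms it was 80.3% and 59.3% for Pol II and 66.4% and 76.1% for pSer5. Genes with Pol II in both lists numbered 925 at 1-1.5 h and 207 at 2.5-3 h, and genes with pSer5 in both lists numbered 1170 and 2027. Leaving out the histone genes, 814 genes had Pol II in both early lists, and of these 485 (59.6%) had pSer5 alone later, 40 (4.91%) had both and 142 (17.4%) had neither. Of the 1740 genes with pSer5 alone at 2.5-3 h, 1190 (68.4%) were not bound by pSer5 in both early lists and 526 (30.2%) had no peak of either antibody at the early stage. The pair-rule genes eve, ftz, prd and slp1 had both antibodies at 1-1.5 h. Stage was not tested here, since each stage and antibody has 2 lists.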

How the data were processed

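Formaldehyde-fixed embryos gave the chromatin, per the labels' protocols, and the titles name the antibody target as Pol II, pSer5, IntS11, Zelda or GAF. The submitters' processing notes list MACS2 2.2.7.1, a peak caller, with deepTools 3.5.1, and list Bowtie2 2.2.5, an aligner, with Trimmomatic 0.39 and SAMtools 1.18. The build is dm6 and no settings are given. The authors deposited 1 list of peak positions per sample, with no scores, and the caller's threshold and control are not given in the sources used here. In all, 36 embryo lists were read, and 1 mitochondrial peak was left out of each mutant Pol II list of 2.5-3 h. Depth is unknown, so no interval is given.

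Positions were compared with Python 3.11.15, numpy 2.4.6 and pandas 2.3.3. Gene positions and names came from the RefSeq table of Release 6 of the Drosophila genome, which has no strand, so gene starts and ends were treated alike. Of 996 symbols asked for in 26 gene lists, 964 were found. Lists were compared with two-sided exact permutation tests, and differences between genotypes in the pSer5 to Pol II contrast by permuting genotype within antibody over 36 arrangements. The overlap functions were tested on simulated lists.

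The regions, gene lists and tests were chosen with earlier results of these data known. Genes were named by a rule. For each class the 8 protein-coding genes of the arms with the longest peaks were taken, 1 per replicate 1 peak (of Pol II, or of pSer5 for the pSer5-only class, so that several histone genes share a pSer5 region) and without symbols that begin with CG, together with up to 4 members of each list and class in order of symbol. A further few members of short classes and genes noted as such were named after their values were seen. No promoter sequences were used, so a planned motif count was not run.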

Additional observations from a re-analysis of the deposited data

Results flagged for a closer look

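The share of peaks within 500 bp of a gene end was flagged because the order of the antibodies differed between genotypes in every list. In the mutant both pSer5 lists (23.1% and 24.8%) lay above both Pol II lists (4.51% and 7.27%), and in the wild type both Pol II lists (61.3% and 62.4%) lay above both pSer5 lists (59.0% and 59.5%). The Pol II minus pSer5 difference in the mutant minus that in the wild type was -20.6 points. The exact permutation of genotype within antibody gave p = 0.556. Both antibodies had smaller shares in the mutant, so exchanging the genotype labels of only Pol II or only pSer5 gives a larger difference than this. The p therefore could not come near 0.0556, the smallest value the arrangements alone allow. It cannot decide whether the contrast between antibodies differs between genotypes. On the arms alone the shares were 15.7% and 18.7% for mutant Pol II and 33.6% and 35.2% for mutant pSer5.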

How the results depend on the processing

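Of 139 alternatives computed, 109 were counted as unchanged, and no test could pass 0.05 under any of them. For the 87 with a test, unchanged means only that the direction was kept. Thus a peak number difference of 1.98 on the arms counts as unchanged from 0.84. Shares of regions had to stay within the spread between lists, and gene counts within 1.5 times the reported count. Joining peaks up to 330 bp apart and leaving out those under 330 bp turned the median length difference to -0.088 and gave a shared pSer5 share of 35.3%. Peaks of at least 500 bp gave 34.8% for that share, 95 genes with both, 11 with Pol II alone and 1051 with pSer5 alone, and turned the covered-length difference between genotypes from 0.02 to -0.048. On the arms alone that difference was 1.41 (exact permutation p = 0.556). This p has the same limit as that for gene ends, since both antibodies covered less of the arms in the mutant. With 50% of a region covered the pSer5 share was 34.2%, and on the arms alone 13.3%. With equal numbers of the longest peaks, 4497 per list, the shared shares were 39.9% (Pol II) and 39.4% (pSer5), with 33 genes for Pol II alone and 1073 for pSer5 alone. Windows of 250 bp gave 8 and 1116 genes, whole genes gave 391 with both and 51 with Pol II alone, and 63 genes had both without the histone genes, an alternative chosen after seeing the data. The cause of these shifts was not tested. Leaving out 1 list at a time gave 45.5% to 70.9% of Pol II regions shared, 28.9% to 42.07% of pSer5 regions, 179 to 279 genes with both, 26 to 162 with Pol II alone and 1748 to 2391 with pSer5 alone, where a single list had to hold a region or gene. It gave -0.15 (without mutant Pol II replicate 1) to 0.20 for the covered-length difference between genotypes, and -0.05 without wild-type Pol II replicate 1. Left-out ranges were 0.65 to 1.04 for peak number, 0.68 to 1.03 for covered length, 0.05 to 0.13 for median length, -19.4 to -16.7 points for gene ends and 31.0 to 41.5 points outside the arms. With the replicate number as a block, the number difference was 0.84 (exact sign flip p = 0.5, the smallest 2 pairs allow), and the numbers are not stated to pair the samples. Unknown depth limits every absence of a peak.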
